A study of Mus musculus with 4 samples.

Results

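Bone morphogenetic proteins (BMPs) are secreted ligands that act through receptor Smads, and the genes that answer them first are the *Id* genes and the inhibitory Smads. The 9 genes described here, *Id1*, *Id2*, *Id3*, *Id4*, *Smad1*, *Smad5*, *Smad6*, *Smad7* and *Smad9*, were taken by symbol from the 32285 genes counted in single cells of injured muscle. Each gene was summed within cell classes that were set by other marker genes, and the rule used no value of the members.

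A BMP dimer brings together type I and type II receptors at the cell surface, and the type I receptor phosphorylates Smad1, Smad5 or Smad9, which join Smad4 and enter the nucleus. There they bind DNA near their targets, among which *Id1*, *Id2* and *Id3* are textbook cases. Id proteins carry a helix-loop-helix domain without a DNA binding region, pair with E proteins and so keep E proteins from the tissue-specific factors of muscle and lymphoid cells. Smad6 and Smad7 are induced by the same pathway and act back on the receptors, Smad7 also on TGF-beta signalling. In muscle, BMP signalling keeps satellite cells from differentiating and, when it is excessive, drives bone formation in soft tissue, which is called heterotopic ossification.

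The mice were *Nse-Bmp4* animals on C57BL/6 aged 6 to 8 weeks, in which the promoter of neuron specific enolase drives *Bmp4*, and every library came from these mice. Heterotopic ossification was started with cardiotoxin, a snake venom toxin that kills muscle fibres. There was 1 10x single-cell library of uninjured tibial muscle (Uninjured) and 1 each from day 1, day 3 and day 7 after injury (dpi, days post injury), each a pool of 3 muscles digested with collagenase. No wild-type mouse was compared here, and the counts of *Bmp4* do not tell transgene from endogenous gene. With 1 library per time point a difference in time and a difference between libraries cannot be told apart, no test was possible, and no p-value is given.

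The members lie on 8 chromosomes of mouse GRCm38 by GENCODE M21 and all are protein coding. *Id1* (ENSMUSG00000042745) is at chr2:152736251-152737410 on the plus strand and *Id2* (ENSMUSG00000020644) at chr12:25093799-25097140 on the minus strand. *Id3* (ENSMUSG00000007872) is at chr4:136143497-136145755 and *Id4* (ENSMUSG00000021379) at chr13:48261228-48266026, both on the plus strand. *Id4* is overlapped on the other strand by the counted genes *A330033J07Rik* and *Gm49291*, and reads of these genes cannot be told apart if strand was not used in counting. *Smad1* (ENSMUSG00000031681) is at chr8:79338395-79399518 on the minus strand, and *Smad5* (ENSMUSG00000021540) at chr13:56703010-56742377 and *Smad9* (ENSMUSG00000027796) at chr3:54755582-54801257 are on the plus strand. *Smad6* (ENSMUSG00000036867) is at chr9:63953076-64022059 on the minus strand and *Smad7* (ENSMUSG00000025880) at chr18:75367529-75395935 on the plus strand.

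The deposited counts are unique molecular identifiers (UMIs), each a captured transcript. The libraries held 11722 to 23752 cells and 91146335 to 129007669 UMIs, and the median UMIs per cell were 8629 in Uninjured and 3083 at 7 dpi. Of 52848 cells kept, 46172 were gated into 16 classes by 8 markers each, and the ungated share was 2.97% in Uninjured and 17.7% at 7 dpi. The classes are marker-like sets, and the word mesenchymal below stands for mesenchymal-like, and so on. Among the 10 genes of largest fold in each class, only the T cell class held a marker of another class (*Il7r*). The mesenchymal class held none of its own 8 markers there and was led by *Ccl11*, *Gsn* and *Pi16*. The gate selects on these same markers, so this is no independent check of cell identity. *Col2a1*, a cartilage collagen, was at 7928 CPM in chondrocytes of 7 dpi and at 84.8 to 189 CPM in the other classes of at least 50 cells in that library, and its part in the values at 7 dpi was not tested. A level is given in CPM, UMIs of the gene per 1000000 UMIs of the class in that library, with a 95% Poisson interval in brackets. Intervals of a ratio come from the conditional binomial. All intervals cover counting error only, not mice, and a level of 1 gene is never set against a level of another.

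RefSeq promoter windows of GRCm38.p6 were matched for 7 of the 9 members, as 9 windows of the 250 bases before a RefSeq gene start. The stretches of 3 windows free of annotated exons are shown, for 3 members with high levels in few classes below: *Id2*, which was high in NK cells, *Id4*, which was high in mural and Schwann cells, and *Smad6*, which was high in endothelial cells. They lie at chr12:25096254-25096342 on the minus strand, chr13:48260866-48261115 on the plus strand and chr9:64022060-64022309 on the minus strand, and are written 5′ to 3′. The *Id2* stretch lies inside the GENCODE span of *Id2* given above, so it comes before a RefSeq start only. Capitals mark GGCGCC, a GC-rich element that BMP Smads bind, and CCAAT, which reads ATTGG on the other strand. Also searched for, on both strands, were CAGAC, a short Smad element, and TATAAA, the TATA box.
*Id2*: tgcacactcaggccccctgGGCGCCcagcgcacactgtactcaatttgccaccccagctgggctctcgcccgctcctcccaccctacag
*Id4*: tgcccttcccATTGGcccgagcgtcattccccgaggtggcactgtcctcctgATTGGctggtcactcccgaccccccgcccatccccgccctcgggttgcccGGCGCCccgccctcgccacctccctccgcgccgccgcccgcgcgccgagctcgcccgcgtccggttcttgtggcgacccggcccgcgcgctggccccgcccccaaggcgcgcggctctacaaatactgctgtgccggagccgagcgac
*Smad6*: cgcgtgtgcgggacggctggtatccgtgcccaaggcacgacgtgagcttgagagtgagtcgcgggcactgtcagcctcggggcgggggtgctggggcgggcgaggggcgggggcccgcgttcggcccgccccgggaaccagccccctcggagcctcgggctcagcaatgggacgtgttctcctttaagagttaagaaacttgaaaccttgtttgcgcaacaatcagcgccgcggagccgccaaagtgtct
Of 32851 promoter windows of this length 9.59% hold GGCGCC. The share is 42.2% for CAGAC. It is 12.4% for the TATA box, and for CCAAT it is 33.8%. The *Id2* stretch of 89 bases is 67.4% G and C and holds 1 GGCGCC. The *Id4* window is 75.6% G and C with 1 GGCGCC and 2 CCAAT, and the *Smad6* window is 66.8% G and C with none of the 4. Over the full windows GGCGCC was also found for *Smad9* and for 1 of the *Smad5* windows, and CAGAC for *Id3* and for another *Smad5* window. The full *Id2* window holds 3 CCAAT, all outside the stretch shown, and CCAAT was also found for *Smad1* and *Smad5*. These are matches of letters and no measure of binding.

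The *Id* genes differed in the classes where they were highest, and some classes were high for more than 1 of them. *Id1* was highest in endothelial, myogenic and mural cells, and *Id3* in mural and myogenic cells. *Id2* was highest in NK cells, T cells and conventional dendritic cells, and *Id4* in mural and Schwann cells. Over the 46 combinations of class and library with at least 50 cells, log2(CPM + 10) of *Id1* and *Id3* had a Pearson r of 0.608, and *Id2* had r = -0.213 with *Id1* and -0.383 with *Id3*. These points share libraries, and the shallow libraries recur in them.

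**Figure D1:**
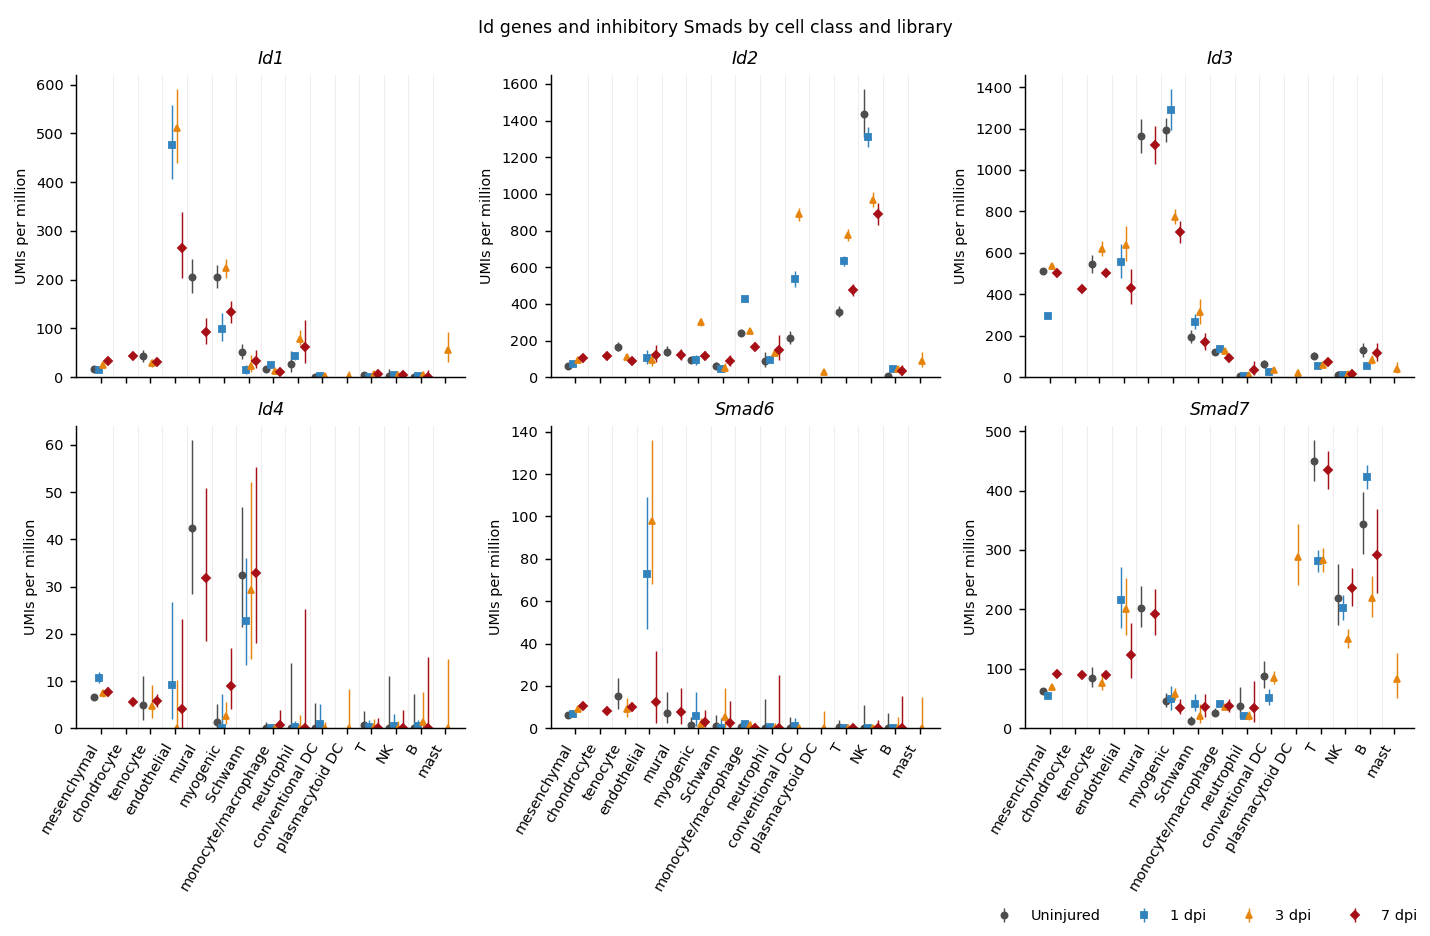
Level in CPM (linear axis, 1 panel per gene) of the 4 *Id* genes, *Smad6* and *Smad7* in every cell class with at least 50 cells, with 1 point per library and bars for the 95% counting interval. *Id2* stood highest in NK cells (891 to 1438 CPM), *Id3* in mural (1119 to 1164 CPM) and myogenic cells (699 to 1289 CPM), and *Smad7* in T cells by the mean over libraries (281 to 449 CPM).

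*Id1*, a direct BMP target, was at 477, 511 and 265 CPM in endothelial cells of 1, 3 and 7 dpi (65, 118 and 61 cells). In myogenic cells it was at 205, 99.4, 223 and 133 CPM from Uninjured to 7 dpi. Mural cells, the pericytes and smooth muscle around vessels, had 205 CPM in Uninjured and 91.7 CPM at 7 dpi. The endothelial level was thus the highest at all 3 time points it could be read, although at 7 dpi the class had only 64 UMIs of the gene. Against mesenchymal cells of the same library endothelial *Id1* was 31.0-fold higher (25.8 to 37.1) at 1 dpi, 20.2-fold (17.2 to 23.6) at 3 dpi and 7.82-fold (5.98 to 10.1) at 7 dpi. In the order of class means mast cells (55.3 CPM at 3 dpi), neutrophils (26.4 to 79.3 CPM), chondrocytes (42.5 CPM), tenocytes (28.3 to 42.9 CPM), Schwann cells (13.9 to 50.9 CPM), mesenchymal cells (15.4 to 34.0 CPM) and monocytes and macrophages (10.6 to 25.1 CPM) came next, and most neighbours in this order overlapped. T, NK, B and dendritic cells were at or below 7.08 CPM.

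The share of cells with an *Id1* UMI was low in mesenchymal cells, 9.42%, 8.48%, 13.2% and 10.1% from Uninjured to 7 dpi, at median depths of 9147, 8096, 5803 and 2914 UMIs. B cells, a class that should lack it, had 0 of 190, 6 of 1323, 3 of 338 and 0 of 162 cells with a UMI, at 2426, 2832, 1736 and 1448 UMIs. With each cell thinned to 1000 UMIs the mesenchymal shares were 1.45%, 1.29%, 2.24% and 2.65%, and those of B cells were at most 0.962%. The thinned shares were in the same order as the CPM, with 1 dpi lowest and 7 dpi highest, which the unthinned shares were not.

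*Id3* was high over many stromal classes. Mural cells had 1164 CPM (1084 to 1248) in Uninjured and 1119 CPM (1031 to 1213) at 7 dpi. Myogenic cells had 1194, 1289, 775 and 699 CPM from Uninjured to 7 dpi. Tenocytes (503 to 620 CPM), endothelial cells (431 to 640 CPM) and mesenchymal cells (295 to 537 CPM) had overlapping ranges, and Schwann cells came below at 169 to 313 CPM, a range that overlapped only the 1 dpi mesenchymal level. Among blood cells, NK cells (10.7 to 17.6 CPM) and neutrophils (3.78 to 34.2 CPM) were lowest. T cells had 102, 53.0, 59.5 and 75.3 CPM and were above NK cells of the same library by 8.46-fold (3.24 to 31.5) in Uninjured and by 3.70-fold (2.59 to 5.42) at 3 dpi. A mesenchymal cell with an *Id3* UMI was common, at 68.7% in Uninjured and 62.9% at 7 dpi, or 28.8% and 32.9% after thinning, against 3.26% and 1.61% of thinned NK cells.

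*Id4* was sparse outside 2 classes. Mural cells had 42.5 CPM in Uninjured and 31.8 CPM at 7 dpi, which was 6.32-fold (4.19 to 9.18) and 4.11-fold (2.36 to 6.72) above mesenchymal cells of the same library. Schwann cells, the glia of peripheral nerve, had 32.4, 22.8, 29.2 and 32.9 CPM across the 4 libraries and were 4.81-, 2.12-, 3.94- and 4.26-fold above mesenchymal cells. The mural and Schwann ranges overlapped. Mesenchymal cells had 6.72 to 10.7 CPM, and no class of blood cells exceeded 1.39 CPM.

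The mesenchymal class, to which skeletal progenitors belong, includes cells from which ectopic cartilage and bone can form. The values below are RNA levels of the members, and BMP signalling itself was not measured. *Id1* was at 16.1 CPM (15.3 to 17.1) in Uninjured, 15.4 (14.1 to 16.8) at 1 dpi, 25.3 (23.9 to 26.7) at 3 dpi and 34.0 (32.0 to 36.0) at 7 dpi. *Id2* was at 62.5, 72.1, 92.5 and 106 CPM in the same order. *Id3* was at 513, 295, 537 and 505 CPM. As gated here, *Id1* and *Id2* were therefore highest in the last library. *Id3* was lowest at 1 dpi and between 505 and 537 CPM in the 3 other libraries. Under a gate of *Prrx1* and *Col1a1* UMIs without *Ptprc*, log2 ratios of 7 over 3 dpi were -0.01 for *Id1* and -0.02 for *Id2*.

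Between Uninjured and 1 dpi *Id3* was 1.74-fold lower (1.70 to 1.77), the largest difference of any member in that step. *Id4* was 1.60-fold higher (1.40 to 1.83), *Smad5* 1.42-fold (1.33 to 1.51) and *Smad1* 1.37-fold (1.29 to 1.45). The ratio of *Id1* was 0.955 (0.861 to 1.06). None of the 9 members reached a 2-fold difference in either direction, where 8.12% of 13773 genes with at least 50 UMIs over the pair were at least 2-fold higher and 4.23% at least 2-fold lower. The median log2 ratio was 0.21 over members and 0.16 over all these genes, and relative to that median *Id3* was at -0.96, *Smad5* at 0.34, *Smad1* at 0.29 and *Id2* at 0.04.

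From 1 to 3 dpi the members did not all go in the same direction. *Id3* was 1.82-fold (1.78 to 1.86) and *Id1* 1.64-fold (1.48 to 1.82) higher, and *Id2*, *Smad1*, *Smad6* and *Smad7* were 1.27- to 1.40-fold higher. *Id4* was 1.45-fold lower (1.26 to 1.68) and *Smad5* had a ratio of 0.964 (0.905 to 1.03). Only *Smad9* passed 2-fold, from 31 to 109 UMIs, at 2.28-fold higher (1.52 to 3.51), so 1 of 9 members was called higher and 0 lower against 5.86% and 5.06% of 13624 genes. With the mesenchymal cells taken instead as those with *Prrx1* and *Col1a1* UMIs and no *Ptprc* UMI, the log2 ratio was 0.99 for *Smad9* and 1.22 for *Id1*, so *Id1* and not *Smad9* was past 2-fold. The members had a median log2 ratio of 0.41, and all genes had -0.08.

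From 3 to 7 dpi the members moved apart. *Id1* was 1.34-fold higher (1.24 to 1.46), *Smad7* 1.30-fold (1.24 to 1.37) and *Id2* 1.15-fold (1.10 to 1.20), while *Smad1* was 1.69-fold lower (1.60 to 1.80) and *Smad5* 1.27-fold lower (1.19 to 1.37). Members called were 0 in both directions, against 8.05% higher and 5.26% lower of 13819 genes, and the median log2 ratios were 0.06 and -0.07. With the same *Prrx1* and *Col1a1* gate the log2 ratio of this step was -0.01 for *Id1* and -0.02 for *Id2*, so the increase of both rests on the gate. That gate takes any kept cell with these UMIs, so chondrocytes and tenocytes are not left out of it. Gates of 2 and 4 markers gave 0.58 and 0.42 for *Id1* and 0.21 and 0.18 for *Id2*. Thinned cells gave 0.18 for *Id1* and 0.13 for *Id2*. Set against Uninjured, 7 dpi had 2.10-fold (1.94 to 2.28) the *Id1* level, 1.70-fold (1.63 to 1.78) that of *Id2* and 0.985-fold (0.968 to 1.00) that of *Id3*. *Smad9*, from 60 and 56 UMIs, was at 2.21-fold (1.51 to 3.23), *Smad6* at 1.69-fold and *Smad7* at 1.46-fold. *Id4*, *Smad1* and *Smad5* lay between 1.07- and 1.15-fold. The share over all genes was not computed for this pair.

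**Figure D2:**
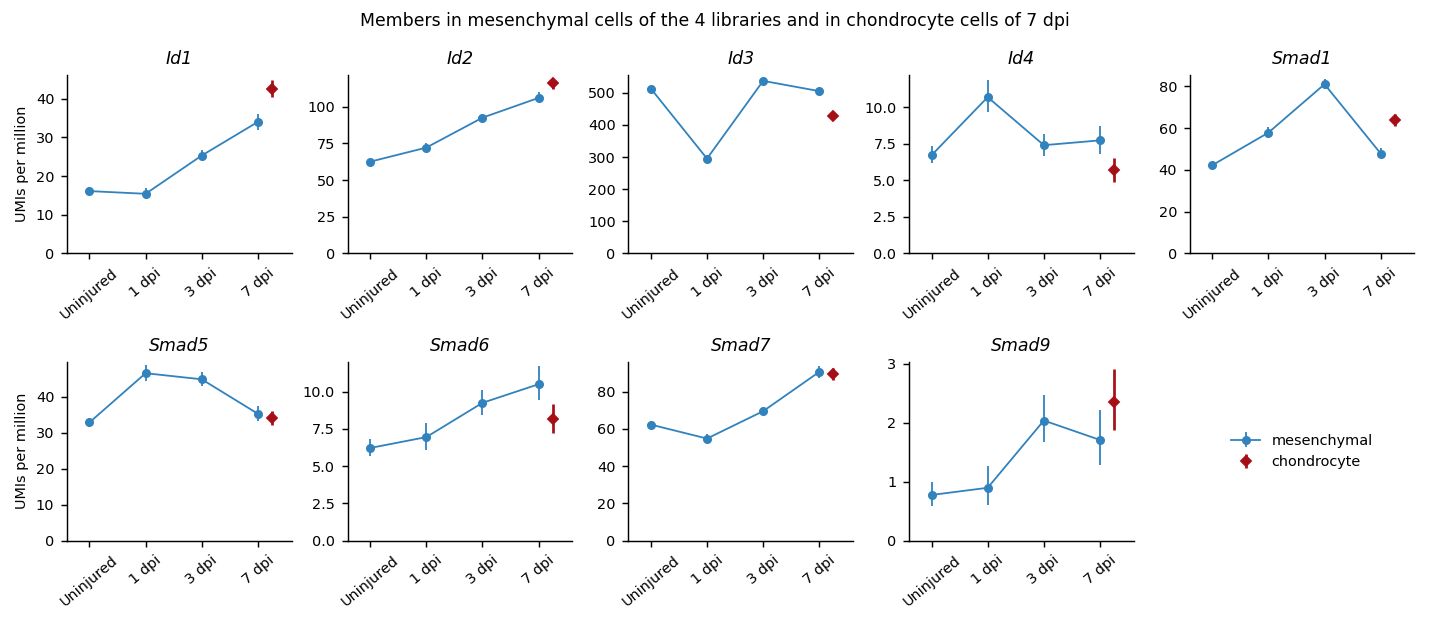
Level in CPM of each of the 9 members in mesenchymal cells of the 4 libraries (circles) and in chondrocytes of 7 dpi (diamonds), with 95% counting intervals. *Id1* went from 16.1 to 34.0 CPM, *Smad1* was highest at 3 dpi (81.0 CPM), and *Id3* was lowest at 1 dpi (295 CPM).

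*Bmp4* in the same mesenchymal cells was at 120.0, 103, 63.4 and 28.5 CPM from Uninjured to 7 dpi, opposite in order to *Id2* as gated here. The last step of *Id2* rests on the gate, with a log2 ratio of -0.02 under the *Prrx1* and *Col1a1* gate. For *Id1* the interval of 1 dpi over Uninjured included 1-fold (0.861 to 1.06), and its level was higher after that. Cells with at least 3 of 8 cycling genes made up 1.09%, 2.68%, 12.4% and 14.6% of the class. Depth per cell was also lower in the later libraries. With cells thinned to equal depth, the log2 ratio of 7 over 3 dpi was 0.18 for *Id1* (0.43 as reported) and 0.13 for *Id2* (0.20). For 3 over 1 dpi it was 0.87 for *Id1* (0.71) and 0.39 for *Id2* (0.36). For 1 dpi over Uninjured it was -0.22 for *Id1* (-0.07) and 0.13 for *Id2* (0.21). The part of cycling cells in the course was not tested, and that of depth only by this thinning. Within the class, cycling cells had more *Id1* than cells with none of the 8 genes in each library, by 3.97-fold (3.16 to 4.94) in Uninjured, 1.83-fold (1.34 to 2.45) at 1 dpi, 1.44-fold (1.27 to 1.63) at 3 dpi and 1.46-fold (1.25 to 1.7) at 7 dpi. The cycling cells were deeper, with a median of 15656 against 9033 UMIs in Uninjured, where they numbered 90. *Id4* went the other way at 3 dpi, at 3.22 CPM in cycling cells and 10.5 CPM in those with none. This comparison, and those by *Bmp4*, *Pi16*, *Col15a1* and *Col10a1* UMIs below, were chosen after the data had been seen.

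**Figure D3:**
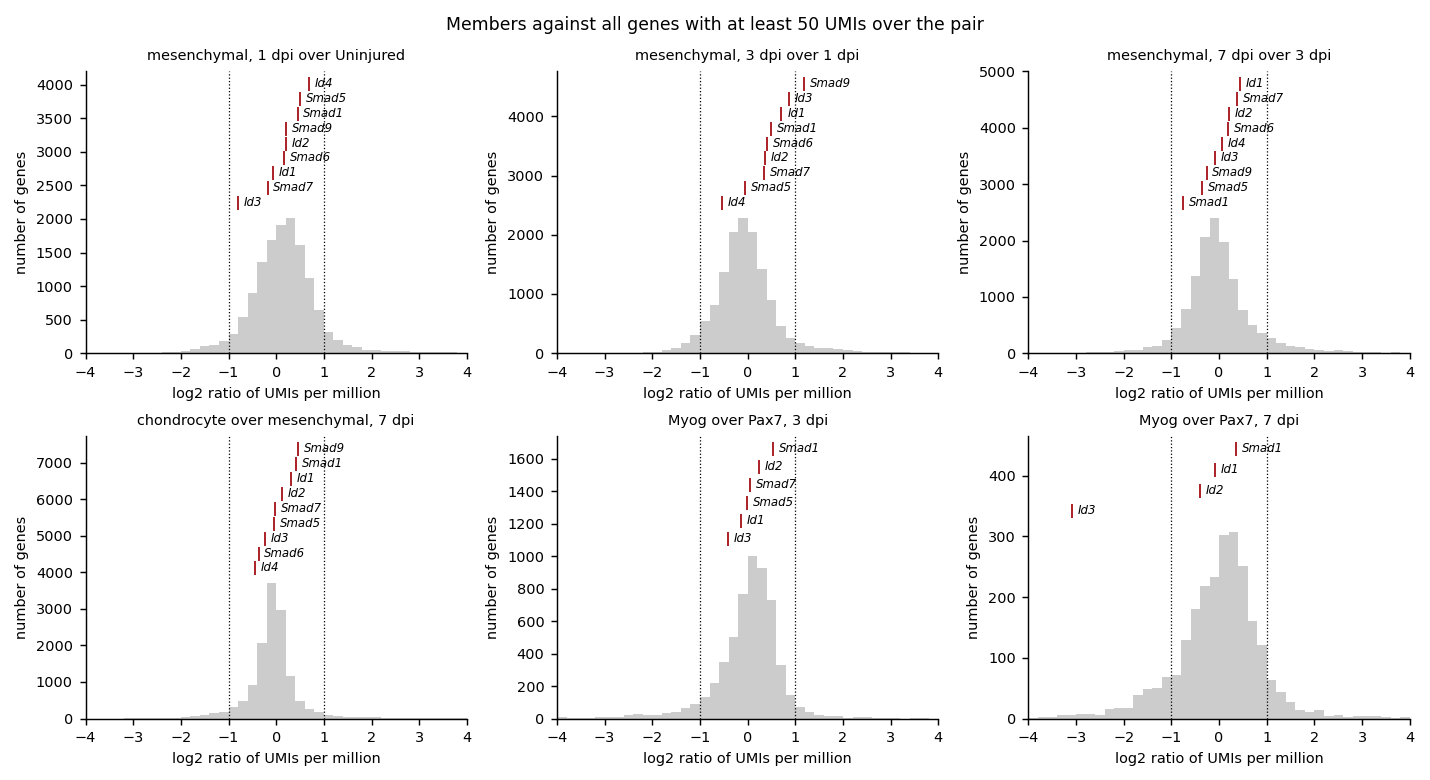
Number of genes by log2 ratio of CPM over all genes with at least 50 UMIs, in 6 comparisons of mesenchymal cells, chondrocytes and myogenic cells, with members as named ticks and dotted lines at 2-fold. Apart from *Smad9* at 3 dpi over 1 dpi (1.19) and *Id3* in *Myog* cells at 7 dpi (-3.08), the members that could be read lay within 1 log2 unit of 0.

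Before injury, mesenchymal cells carrying a *Bmp4* UMI had less *Id3*, *Id2* and *Id4* than those without. In Uninjured the 4116 mesenchymal cells with such a UMI had 420 CPM of *Id3* and the 4135 without had 613 CPM, a ratio of 0.685 (0.672 to 0.699). At 1 dpi the ratio was 0.772 (0.741 to 0.803), at 3 dpi 1.02 (0.992 to 1.04) and at 7 dpi 1.06 (1.02 to 1.11). In Uninjured the ratio was 0.688 for *Id2* and 0.720 for *Id4*. *Id1* had ratios of 0.929, 1.01 and 1.05 in the first 3 libraries and 1.73 (1.5 to 2) at 7 dpi, where the 656 carriers had a median of 5351 UMIs and the remaining cells 2757.

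The mesenchymal class of uninjured muscle contained subsets that differed in *Id3* and *Smad1*. *Pi16* marks fibroblasts of the adventitia and *Col15a1* those of the tissue interior. In Uninjured, 2956 cells with *Pi16* and no *Col15a1* UMI had 715 CPM of *Id3* and 2927 cells with the opposite had 355 CPM, a ratio of 2.01 (1.96 to 2.06). That ratio was 1.36 (1.30 to 1.43) at 1 dpi, 1.05 (1.02 to 1.09) at 3 dpi and 1.05 (0.997 to 1.10) at 7 dpi. The split rests on detected UMIs, and the median depth of mesenchymal cells was 9147 UMIs in Uninjured and 2914 at 7 dpi. The part of depth in the smaller ratios of the later libraries was not tested. *Smad1* had ratios of 1.97, 1.40, 1.39 and 1.17, and *Smad6* of 1.88, 1.89, 1.19 and 1.02. *Bmp4* was lower in the *Pi16* subset throughout, with ratios of 0.329, 0.327, 0.480 and 0.573. The part of these subsets in the split by *Bmp4* UMIs above was not tested. *Smad7* had ratios of 0.862, 0.674, 1.28 and 1.17, hence below 1 in the first 2 libraries and above 1 in the later ones.

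At 7 dpi 6148 chondrocytes were gated, against 1 such cell in the 3 other libraries. *Id1* was at 42.5 CPM (40.4 to 44.7) in them and at 34.0 CPM in mesenchymal cells of the same library, 1.25-fold higher (1.16 to 1.35). *Smad1* was 1.33-fold higher (1.25 to 1.42) and *Id2* 1.09-fold (1.04 to 1.14). *Id3* was lower by 1.19-fold (1.16 to 1.21), *Smad6* by 1.29-fold (1.10 to 1.51) and *Id4* by 1.36-fold (1.13 to 1.65). *Smad7* had a ratio of 0.987 (0.938 to 1.04) and *Smad5* 0.966 (0.891 to 1.05). None of the 9 members passed 2-fold, against 3.90% higher and 4.59% lower of 13653 genes, and the median log2 ratios were -0.02 and -0.06.

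Chondrocytes that carried at least 3 UMIs of *Col10a1*, the collagen of hypertrophic cartilage, had more *Id1* than those with none. The 683 carriers had 67.4 CPM and the 4871 others 38.6 CPM, a ratio of 1.75 (1.51 to 2.01), at medians of 3923 and 3771 UMIs. *Smad7* had a ratio of 1.37 (1.23 to 1.52) and *Id2* 1.26 (1.15 to 1.39), whereas *Id3* had 0.972 (0.920 to 1.03) and *Smad1* 0.822 (0.704 to 0.955). *Smad9* was at 5.38 and 1.60 CPM, a ratio of 3.36 (1.86 to 5.85). With chondrocytes held to at least 6 of the 8 cartilage markers and mesenchymal cells to none, a choice also made after the data had been seen, *Id1* was 1.44-fold (1.28 to 1.61), *Smad1* 1.46-fold (1.32 to 1.62) and *Smad9* 2.27-fold (1.24 to 4.44) higher in chondrocytes.

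The myogenic class asked about Id proteins in their best known setting, since Id1 and Id3 hold back the E protein partners of MyoD. Summed over the class, *Id1* at 3 dpi was 2.24-fold (1.68 to 3.05) and *Id2* 3.28-fold (2.44 to 4.51) above 1 dpi, while *Id3* was 1.66-fold lower (1.52 to 1.82). *Id2* was at 94.8, 91.6, 301 and 118 CPM across the 4 libraries, and its 3 dpi interval (279 to 324) did not overlap any other. In the same class cycling cells made up 3.16%, 0%, 36.3% and 13.4%, and their part was not tested.

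Myogenic cells were then split within a library into those with *Myog*, the factor of committed myocytes, and those with *Pax7*, the factor of satellite cells, and no *Myog* UMI. At 7 dpi *Id3* was at 140.0 CPM in 55 *Myog* cells and at 1190 CPM in 107 *Pax7* cells, 8.48-fold lower (6.47 to 11.3). *Id1* was at 131 and 139 CPM with a ratio of 0.943 (0.646 to 1.37), and *Id2* at 102 and 134 CPM with 0.756 (0.5 to 1.13). *Id3* alone among the 4 members with at least 50 UMIs passed 2-fold there, and 8.91% of 2513 genes were higher and 12.5% lower. The median log2 ratio was -0.24 over the 4 and 0.07 over all genes.

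At 3 dpi the same split gave a smaller difference in *Id3*, 682 CPM in 68 *Myog* cells and 912 CPM in 143 *Pax7* cells, a ratio of 0.748 (0.679 to 0.825). *Id1* had a ratio of 0.905 (0.756 to 1.08), *Id2* 1.18 (1.01 to 1.38) and *Smad1* 1.44 (1.02 to 2.05). Of 6 members with enough UMIs 0 passed 2-fold, where 3.50% of 5691 genes were higher and 6.99% lower, and the median log2 ratios were 0.02 and 0.09. The *Myog* cells were deeper, with medians of 12577 and 3846 UMIs at 3 dpi and 6923 and 4058 at 7 dpi. With every cell thinned to 1000 UMIs the log2 ratio at 3 dpi went from -0.14 to 0.59 for *Id1*, from 0.24 to 1.14 for *Id2* and from 0.05 to -1.25 for *Smad7*. Thinning also leaves few UMIs of each gene, and the cause of these moves was not tested. That of *Id3* was -0.42 as summed and -0.71 thinned. At 7 dpi *Id3* stayed between -3.17 and -2.97 in all alternatives tried, and the difference between the 2 time points was not tested.

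**Figure D4:**
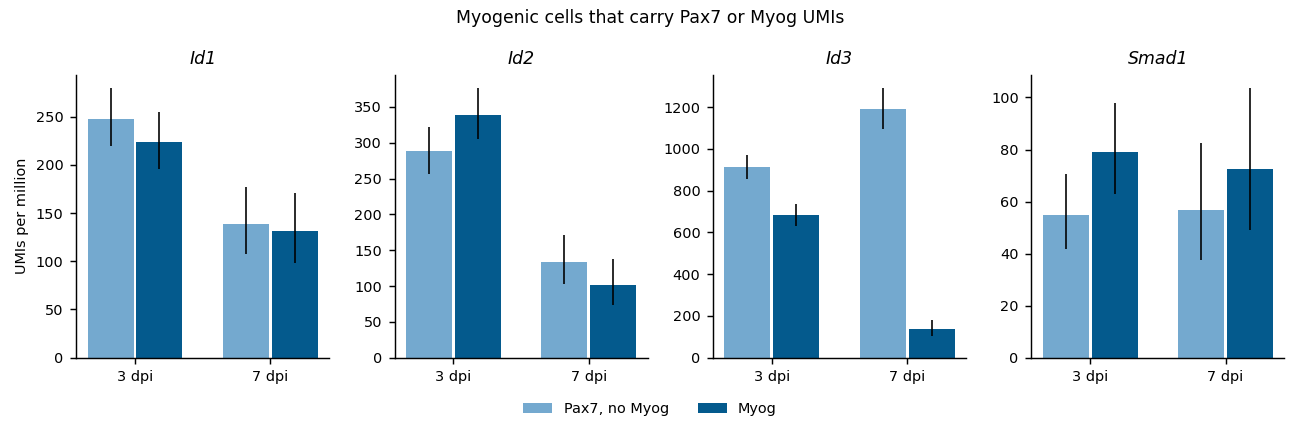
Level in CPM (bars from 0, with 95% counting intervals) of *Id1*, *Id2*, *Id3* and *Smad1* in *Myog* and *Pax7* cells of the myogenic class at 3 and 7 dpi. *Id3* in *Myog* cells was at 682 CPM at 3 dpi and 140.0 CPM at 7 dpi, while in *Pax7* cells it was at 912 and 1190 CPM.

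By the mean over libraries *Id2* was highest in NK cells, T cells and conventional dendritic cells, followed by monocytes and macrophages. The range of monocytes and macrophages (167 to 428 CPM) overlapped that of myogenic cells (91.6 to 301 CPM). The Id2 factor is needed for NK cells and for several dendritic cell lineages. NK cells had 1438, 1309, 969 and 891 CPM from Uninjured to 7 dpi, with 7 dpi 1.61-fold below Uninjured (1.44 to 1.81). T cells had 356, 634, 777 and 474 CPM, and the ratio of NK to T cells was 4.04 (3.56 to 4.58), 2.06 (1.94 to 2.19), 1.25 (1.18 to 1.32) and 1.88 (1.71 to 2.07). NK cells were thus above T cells in every library, most so before injury. B cells had 3.96 CPM (2 UMIs), 43.1, 44.5 and 32.9 CPM, and T cells exceeded them 14.7-fold (12.6 to 17.2) at 1 dpi and 17.5-fold (12.3 to 25.6) at 3 dpi.

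The 2 kinds of dendritic cell differed in *Id2* and *Smad7*, in opposite directions. At 3 dpi conventional dendritic cells had 888 CPM of *Id2* (853 to 924, 379 cells) and plasmacytoid dendritic cells 26.9 CPM (13.9 to 46.9, 88 cells), a ratio of 33.1 (18.9 to 64.1). *Smad7* was at 84.7 CPM in the former and 289 CPM in the latter, 3.41-fold lower in conventional cells (2.73 to 4.25). Conventional dendritic cells had 214 CPM of *Id2* in Uninjured and 535 CPM at 1 dpi, with no overlap of the intervals with 3 dpi. Monocytes and macrophages had 241, 428, 250 and 167 CPM, with 1 dpi 1.77-fold above Uninjured (1.63 to 1.93) and 3 dpi 1.71-fold below 1 dpi (1.61 to 1.82).

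Of the receptor Smads, which carry the signal from the receptor, *Smad1* and *Smad5* were highest in endothelial cells by the mean over libraries. *Smad1* was at 97.3, 190.0 and 195 CPM there at 1, 3 and 7 dpi, and was 1.68-, 2.35- and 4.07-fold above mesenchymal cells of the same library. *Smad5* was at 60.8, 95 and 124 CPM, where the 1 dpi ratio to mesenchymal cells was 1.31 (0.795 to 2.02) and that of 7 dpi 3.52 (2.37 to 5.06). This range overlapped those of *Smad5* in Schwann cells (21.2 to 98.1 CPM) and myogenic cells (44.9 to 79.9 CPM). Both genes were lowest in neutrophils on average, and their levels had r = 0.779 over the 46 points. In mesenchymal cells *Smad1* was at 42.2, 57.8, 81.0 and 47.8 CPM and *Smad5* at 32.9, 46.6, 44.9 and 35.3 CPM, so both were back near the Uninjured level at 7 dpi. *Smad9* was found in the mesenchymal, chondrocyte, tenocyte and myogenic classes, and any other class of at least 50 cells had at most 1 UMI in a library. It was at 0.776, 0.898, 2.04 and 1.71 CPM in mesenchymal cells, and 0 UMIs were counted in endothelial cells of 1, 3 and 7 dpi, which allows up to 9.12, 8.38 and 12.4 CPM (3 counts per library). A difference from the mesenchymal level was therefore not detectable at this depth.

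*Smad6*, an inhibitor of BMP type I receptors, set endothelial cells of 1 and 3 dpi apart from the other classes. Endothelial cells had 73.0 CPM (46.8 to 109, 24 UMIs) at 1 dpi and 97.8 CPM (68.1 to 136, 35 UMIs) at 3 dpi, 10.5-fold (6.60 to 16.0) and 10.6-fold (7.28 to 14.9) above mesenchymal cells. At 7 dpi it was at 12.4 CPM (2.57 to 36.4) from 3 UMIs, a ratio to 3 dpi of 0.127 (0.025 to 0.404), and the interval against mesenchymal cells included 1 (0.243 to 3.48). *Id1*, *Id3* and *Smad7* of endothelial cells were also lower at 7 than at 3 dpi, by 1.93-fold (1.44 to 2.60), 1.48-fold (1.17 to 1.89) and 1.62-fold (1.04 to 2.57), whereas *Smad1* had a ratio of 1.03 (0.692 to 1.51). The range of mesenchymal cells (6.22 to 10.5 CPM) overlapped those of tenocytes (9.06 to 15.2 CPM) and mural cells (7.32 to 7.49 CPM) and held the level of chondrocytes (8.15 CPM). NK cells had no *Smad6* UMI in any library, with 0 UMIs in 609 cells at 3 dpi, which allows up to 1.27 CPM. In endothelial cells 26.2%, 19.5% and 4.92% carried a UMI at medians of 4163, 2415 and 2656 UMIs.

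*Smad7*, the inhibitor shared with TGF-beta signalling, was high in lymphocytes and plasmacytoid dendritic cells. T cells had 449, 281, 283 and 434 CPM and B cells 343, 423, 220.0 and 292 CPM, ranges that overlapped. T cells of 1 dpi were 1.60-fold below Uninjured (1.44 to 1.77). NK cells had 151 to 236 CPM and were 1.39- to 2.04-fold below T cells of the same library. Plasmacytoid dendritic cells, read only at 3 dpi, had 289 CPM (241 to 343), where T cells had 283 CPM. Mural cells (202 and 193 CPM) and endothelial cells (216, 201 and 124 CPM) came next, and Schwann cells were lowest by the mean, at 11.6 to 41.7 CPM. That range held those of neutrophils (20.6 to 37.8 CPM) and of monocytes and macrophages (26.6 to 40.9 CPM). Unlike *Smad6*, which had r = 0.666 with *Id1* and 0.701 with *Smad1* over the 46 points, *Smad7* had r = -0.282 with *Id1* and 0.0857 with *Smad6*.

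Genes of the same pathway outside the 9 were read from lists. None of the 7 BMP receptor genes, 10 further Smads and Smad regulators, 6 further BMP-induced genes and 3 E proteins that could be read passed 2-fold in mesenchymal cells from Uninjured to 1 dpi. Below the minimum of 50 UMIs, and named after its value was seen, *Grem1* had 2 UMIs in Uninjured and 45 at 1 dpi. Its CPM was 50.4-fold higher (13.2 to 429) at 1 dpi. *Bmpr1b* (10 and 8 UMIs) and *Msx2* (5 and 0 UMIs) were also below the minimum. From 1 to 3 dpi 1 of 8 receptors was higher, *Bmpr1b*, a type I receptor of cartilage, from 8 to 94 UMIs and 7.61-fold (3.71 to 18.1), and 1 lower, *Acvr2b*, by 2.20-fold (1.64 to 2.94). Of 7 further BMP-induced genes *Atoh8* was 2.65-fold higher (2.25 to 3.13) and *Msx1* 2.07-fold lower (1.95 to 2.20). None of the 10 Smads and regulators and none of the E proteins passed 2-fold in this step. Over all genes, 5.86% were at least 2-fold higher and 5.06% lower in this step. From Uninjured to 1 dpi these shares were 8.12% and 4.23%.

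From 3 to 7 dpi *Bmpr1b* was again higher, by 2.59-fold (1.98 to 3.38), as 1 of 8 receptors, and of 10 Smads and regulators *Smurf2*, a ubiquitin ligase, was 2.07-fold lower (1.93 to 2.22). Of 7 BMP-induced genes 3 were higher, *Dlx5*, a skeletal homeobox factor, 9.59-fold (7.28 to 12.8), *Grem1*, a BMP antagonist, 4.89-fold (3.39 to 7.18) and *Bambi*, a pseudoreceptor, 2.56-fold (2.29 to 2.86), and *Msx1* was 2.08-fold lower (1.88 to 2.29). In chondrocytes 4 of the 7 were above mesenchymal cells, *Nog*, another antagonist, 4.10-fold (2.71 to 6.42), *Bambi* 2.80-fold, *Grem1* 2.60-fold and *Dlx5* 2.46-fold, with *Msx1* 2.16-fold lower. Of the receptors *Acvrl1* was 2.18-fold and *Acvr2a* 2.15-fold lower there. In the same 2 comparisons none of the 9 members passed 2-fold. Over all genes, 8.05% were at least 2-fold higher and 5.26% lower from 3 to 7 dpi. For chondrocytes over mesenchymal cells these shares were 3.90% and 4.59%. The lists and the members were chosen with earlier results of these data known, so the contrast between them is no independent result.

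Of the E proteins that Id proteins bind, *Tcf12* was 2.13-fold (1.48 to 3.11) higher in *Myog* than in *Pax7* cells at 7 dpi, as 1 of 3. *Nedd4l*, a ubiquitin ligase, was 3.01-fold (1.69 to 5.67) lower in *Myog* cells at 3 dpi and 2.96-fold (1.53 to 6.20) at 7 dpi, the only gene of its list in either. Over all genes, 3.50% were higher and 6.99% lower in this split at 3 dpi, and 8.91% and 12.5% at 7 dpi. With the minimum of 50 UMIs only 3 receptors and 1 further BMP-induced gene could be read at 3 dpi, and 1 receptor and 0 BMP-induced genes at 7 dpi, so little can be read of these lists in this split. Below that minimum, and named after their values were seen, *Hey1* had 2 UMIs in *Myog* and 36 in *Pax7* cells at 7 dpi, 15.6-fold lower (4.02 to 134), and *Bambi* 2 and 16, 6.94-fold lower (1.63 to 62.2).

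Genes most like 4 of the members were found by Pearson's r of log2(CPM + 10) over the 46 points among 15351 genes. For *Id1* these were *Tspan12* (0.845), *Cdh13* (0.837), *Ptprk* (0.836), *Cavin2* (0.821) and *Igf2* (0.820). For *Id3* they were *Il17rc* (0.880), *Rbfox2* (0.879), *Hspb1* (0.879), *Crip2* (0.874) and *Rab18* (0.872). *Smad6* was most like *Clu* (0.934), *Gata6* (0.931), *Tmtc1* (0.916), *Ldb2* (0.913) and *Pdgfd* (0.908). For *Smad7* they were *Macf1* (0.841), *Gimap6* (0.840), *Grap* (0.818), *Gimap1* (0.802) and *2510002D24Rik* (0.799). With 1 CPM added in place of 10, the lists of *Id3* and *Smad7* shared 4 of 5 genes with these, that of *Id1* 2 and that of *Smad6* 1, so the last 2 lists depend on how low values are treated.

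The mesenchymal class carried most of the UMIs of some members and few of others. It held 88.4%, 69.9%, 77.5% and 35.7% of the *Id3* UMIs of all kept cells from Uninjured to 7 dpi, and 62.9%, 16.1%, 27.9% and 27.2% of those of *Id2*. Most *Id3* UMIs of the first 3 libraries were thus mesenchymal, and most *Id2* UMIs of the last 3 were not. The number of cells of a class and the RNA captured per cell cannot be told apart in a sum over the tissue.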

How the data were processed

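Tibial muscle of *Nse-Bmp4* mice was profiled in 4 10x libraries. The authors used Cell Ranger 5.0.0, and the deposited values are raw UMI counts, whole numbers without scaling. The submitters' processing notes name mm10 and Seurat 3.1.1, and whether strand was used, and whether the down-sampling named in the methods preceded deposit, is not given in the sources used here. Cells within 2 SD of the library mean of log10 UMIs and log10 genes and with at most 10% mitochondrial UMIs were kept. DoubletFinder, which the study used, was not installed, so the 7.5% of cells with the highest Scrublet scores per library were removed (scanpy 1.11.5). A cell was gated to a class with at least 3 of its 8 markers and 2 times as many as of any class outside its family. UMIs were summed per class and library, classes under 50 cells were left out, and CPM, Poisson, Clopper-Pearson and conditional binomial intervals at 95% were computed (Python 3.11.15, numpy 2.4.6, scipy 1.17.1, pandas 2.3.3, matplotlib 3.10.9). The interval and gate code was tested on simulated data. A call means at least 2-fold with at least 50 UMIs over the pair. Identifiers of 99.6% of the 32285 genes matched GENCODE M21. Pairs of libraries shared 30 to 95 barcodes. Named were the members, listed pathway genes past 2-fold and the 5 most similar genes of *Id1*, *Id3*, *Smad6* and *Smad7* with at least 100 UMIs. The members, lists and gates were chosen with earlier results of these data known. Alternatives were other gate sizes, no doublet removal, no cell filters or doublet removal, cells thinned to 1000 UMIs, the median ratio set to 1, a gate on *Prrx1*, *Col1a1* and *Ptprc*, other UMI minimums and another pseudocount. Chondrocytes of at least 6 cartilage markers against mesenchymal cells with none were also counted among the alternatives.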

Additional observations from a re-analysis of the deposited data

Results flagged for a closer look

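*Id1* went in opposite directions in 2 classes between the same libraries. At 3 dpi over 1 dpi its log2 ratio was -1.07 in monocytes and macrophages, from 25.1 to 11.9 CPM, and 1.17 in myogenic cells, from 99.4 to 223 CPM. Each class was a single library per time point, and the difference between the 2 classes was not tested. In myogenic cells the share of cycling cells was 0% at 1 dpi and 36.3% at 3 dpi, and in monocytes and macrophages 1.58% and 3.41%. Its part in either ratio was not tested.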

How the results depend on the processing

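No paired analysis was possible because each time point was a single library. Over 312 recomputed log2 ratios of members, 237 stayed inside the counting interval of the reported value, 72 left it, and 3 whose interval did not include 1-fold changed sign. These 3 were from 3 to 7 dpi in mesenchymal cells, *Id1* at -0.01 (0.43 as reported) and *Id2* at -0.02 (0.20) with the *Prrx1* gate, and *Id3* at 0.02 (-0.09) with all deposited barcodes, that is without cell filters and doublet removal together. Other changes of sign were in ratios whose reported interval included 1-fold, among them, with thinned cells, *Smad6* at 1 dpi over Uninjured (0.16 to -0.23) and *Id4* (0.06 to -0.89) and *Smad9* (-0.26 to 0.75) at 7 over 3 dpi. With the *Prrx1* gate the member past 2-fold at 3 over 1 dpi was *Id1* (1.22) in place of *Smad9* (0.99). Removing no doublets left all 46 ratios within their intervals, and thinning moved 27 of 46. With thinned cells, members past 2-fold became 1 lower at 1 dpi over Uninjured (0 as reported, *Smad9*), 2 higher and 1 lower in *Myog* cells of 3 dpi (0 and 0) and 1 higher in those of 7 dpi (0), and the cause was not tested. Counts of all genes past 2-fold depended on the UMI minimum, since low counts scatter more. With minimums of 10 and 200 UMIs, genes higher in mesenchymal cells were 1934 and 658 (1118 as reported) at 1 dpi over Uninjured, 1354 and 530 (799) at 3 over 1 dpi and 1929 and 566 (1113) at 7 over 3 dpi. Genes lower were 1059 and 337 (582), 1185 and 415 (690), and 1182 with the minimum of 10 (727), with 1093 under the *Prrx1* gate. In chondrocytes genes higher were 996 and 337 (532), and genes lower 1049 with the minimum of 10 (627). In *Myog* cells they were 574 and 47 higher (199) and 1232 and 86 lower (398) at 3 dpi, and 811 and 61 higher (224) and 1489 and 68 lower (313) at 7 dpi. With 61 to 118 endothelial cells and 55 to 68 *Myog* cells, depth limits what can be read there, and members at 0 UMIs are limits, not absence.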
